A study of Mus musculus with 8 samples.

Results

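The clustered, replication-dependent histone genes of the mouse were examined in microglia sorted from the optic nerve. Every row of the deposited gene table whose symbol begins with Hist1h, Hist2h, Hist3h or Hist4h was taken, which gave 71 of 37447 genes. Of these, 70 had a value in every library (a second row of Hist2h3c1 had none), and 54 had a mean of at least 1 FPKM over all libraries and entered the test. FPKM count fragments relative to transcript length and to all mapped fragments, so a comparison of levels between genes holds as far as the assigned lengths and the assignment of reads do, and both are uncertain for several members. By symbol the 71 rows comprised 6 linker histone H1 genes, 20 H2A genes, 19 H2B genes, 13 H3 genes and 13 H4 genes, of which 6, 11, 16, 9 and 12 were tested.

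H2A, H2B, H3 and H4 form the core particle around which DNA is wrapped, and H1 binds the DNA between particles. Dividing cells make most of this protein in S phase from multicopy gene clusters, whose mRNAs have no introns as a rule and end in a conserved stem-loop in place of a poly(A) tail. The stem-loop is bound by the protein Slbp, and U7 small nuclear RNA guides cleavage after it. Histone variants encoded outside the clusters are made throughout the cell cycle from polyadenylated mRNA. Some cluster genes also give polyadenylated transcripts in cells that have left the cycle. Microglia are the macrophages of brain and optic nerve tissue and rarely divide in the adult.

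The libraries came from C57BL/6 mice at 3 months of age, 4 per genotype, with 2 females and 2 males in each. FF mice carried Nf1 flox/flox alleles alone. FFC mice carried the same floxed alleles plus GFAP-Cre, a transgene that expresses Cre recombinase from the GFAP promoter, so that Nf1 is removed in astrocytes and the sorted microglia are the neighbours of the altered cells. The comparison asks how microglia differ when the astrocytes around them lack Nf1. The labels call the libraries biological replicates. They do not say whether 1 library is 1 animal or several, so the p-values measure the spread between these libraries.

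The feature that sets these mRNAs apart is the 3′ stem-loop, and its sequence shows how alike the members are. A pattern of a 6-base stem beginning with GG, a 4-base loop beginning with TT and the exact complement of the stem was found in GENCODE M21 transcripts of 45 of the 71 members. It was found in 185 of 55450 genes of that annotation, which is 0.334%. There were 11 H2A, 10 H2B, 9 H3, 11 H4 and 4 H1 members with the pattern. Several gene models of the other members end at the stop codon, so a missing pattern says only that these letters are not in the annotated transcript. The 6 forms found are shown with the stem in capitals and the loop in lower case. Each has its number of members and, but for the GGTCCT form, an example.
27 members, among them Hist1h2bg and Hist1h1e: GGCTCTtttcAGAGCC
7 members, among them Hist1h4d and Hist1h4m: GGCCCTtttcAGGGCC
6 members, among them Hist1h3e and Hist1h1t: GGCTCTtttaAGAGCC
2 members, among them Hist1h4i: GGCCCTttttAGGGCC
2 members: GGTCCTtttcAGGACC
1 member, Hist2h2ac: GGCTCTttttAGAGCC
The GGCTCT stem was carried by the forms of the first, the third and the last line. Of the 11 H4 members with the pattern, Hist1h4j and Hist1h4b had the GGTCCT stem and the others the GGCCCT stem.

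Upstream sequence was compared because the members varied together across libraries, as described with the levels. RefSeq promoter windows (GRCm38.p6, 250 bases before the start site were searched) matched 63 members. TATAAA, the TATA box, was present on either strand in 46.0% of the 63 and in 12.4% of all 32851 windows. CCAAT was present in 81.0% of members and 33.8% of all windows. It occurred in every H1, H2A and H2B window, in 8 of 11 H3 windows and in 3 of 12 H4 windows. ATTTGCAT, the octamer bound by POU-domain factors, was present in 20.6% of members against 1.60% of all windows, in 7 of 18 H2A and 6 of 16 H2B windows and in no H1, H3 or H4 window. None of the 3 motifs contains another. Neighbouring H2A and H2B genes that start close together on opposite strands have overlapping windows. The same site can then count for both genes, so the member windows are not independent. A match is a description of letters and not a measured binding site. The 150 bases before the start site are printed for a leading H4, H2B and H1 gene and for Hist1h3e, 5′ to 3′ on the gene's strand, with matches to the 3 motifs on either strand in capitals.
Hist1h4d, chr13:23581418-23581567, plus strand: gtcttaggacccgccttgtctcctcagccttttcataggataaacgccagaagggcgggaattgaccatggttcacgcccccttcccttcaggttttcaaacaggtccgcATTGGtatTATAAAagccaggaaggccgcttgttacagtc
Hist1h2bg, chr13:23571250-23571399, plus strand: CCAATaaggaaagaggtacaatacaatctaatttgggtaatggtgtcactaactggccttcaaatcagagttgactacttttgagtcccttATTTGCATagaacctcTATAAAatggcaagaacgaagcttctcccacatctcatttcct
Hist1h1e, chr13:23622559-23622708, minus strand: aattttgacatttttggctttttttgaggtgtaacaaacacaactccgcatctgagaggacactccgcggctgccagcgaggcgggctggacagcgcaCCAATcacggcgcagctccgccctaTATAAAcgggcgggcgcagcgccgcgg
Hist1h3e, chr13:23562386-23562535, minus strand: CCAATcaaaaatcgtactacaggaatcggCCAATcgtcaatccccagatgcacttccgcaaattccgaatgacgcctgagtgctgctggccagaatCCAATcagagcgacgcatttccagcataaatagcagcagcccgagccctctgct

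In the deposited table, whose coordinates are in build mm9, most members lie on chromosome 13 in blocks parted by gaps of over 100 kb. The longest block, at 23622919 to 23856283, held 29 rows over 233.365 kb and is called the long Hist1 block. A block at 21807632 to 21929399 held 19 rows and is called the first Hist1 block. Between them, at 22126982 to 22135545, lay 5 more. The testis pair Hist1h2ba and Hist1h2aa lay apart at 24025637 to 24026720, and Hist1h2al stood alone at 51298057 to 51298434. The Hist2 cluster on chromosome 3, at 96023788 to 96082924, had 11 rows. The Hist3 cluster on chromosome 11, at 58762413 to 58770176, had 3, and Hist4h4 was the sole member on chromosome 6, at 136752589 to 136752900. Protein-coding status was given by GENCODE M21 for 66 of the 71 rows and pseudogene status for Hist1h2aj, Hist1h2al and Hist3h2bb-ps. Hist2h2bb was typed as a long noncoding RNA (lincRNA), and the Hist2h3c1 row with values as a processed transcript.

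Some measures of whole libraries bear on every comparison of these genes. Summed FPKM over genes with values lay between 367760 and 700291, and 11964 to 14146 genes were above 1 FPKM. FF 2 and FF 4 stood apart from the others. They had the lowest summed FPKM, and chemosensory receptor genes, which microglia are not known for, took 3.75% and 3.22% of it, against 0.649% to 1.55% in the remaining 6 libraries. The sample titles carry a month whose meaning the labels do not state: Nov for FF 1, FF 2, FF 3 and FFC 1, and Dec for FF 4, FFC 2, FFC 3 and FFC 4. Month and genotype are therefore partly confounded. Read as dates, the titles part the genotypes further. The title of FFC 1 is later in Nov than those of FF 1, FF 2 and FF 3, so every FFC library follows these in title order. FF 4 falls between FFC 3 and FFC 4. The 7 microglial markers (Csf1r, Cx3cr1, P2ry12, Tmem119, Aif1, Itgam and Sall1) summed to 875 to 2615 FPKM in FF and 1970.2 to 2944 FPKM in FFC libraries, and all 7 passed the expression filter. In bulk samples, fewer cells of a type and less RNA per cell cannot be told apart.

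The clustered histone genes together took 1149, 267, 1543 and 414 FPKM across FF 1 to FF 4, and 843, 2118, 1349 and 4239 FPKM across FFC 1 to FFC 4. FF 2 and FF 4 were the lowest of the 8 and FFC 4 the highest, and the genotypes overlapped, since FF 3 and FF 1 were above FFC 1. As a share of all FPKM this was 0.0682% to 0.263% in FF and 0.161% to 0.651% in FFC. The number of members above 1 FPKM was 31, 19, 40 and 25 across FF and 36, 47, 49 and 50 across FFC. Members listed at 0 numbered 17 to 40 per FF library and 7 to 20 per FFC library. A value of 0 in these files may be a failed estimate, so such members are said to be listed at 0. Only 11 of the 70 members were above 1 FPKM in all 8 libraries, and Hist1h2ah and Hist1h2ap were listed at 0 in all.

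**Figure D1:**
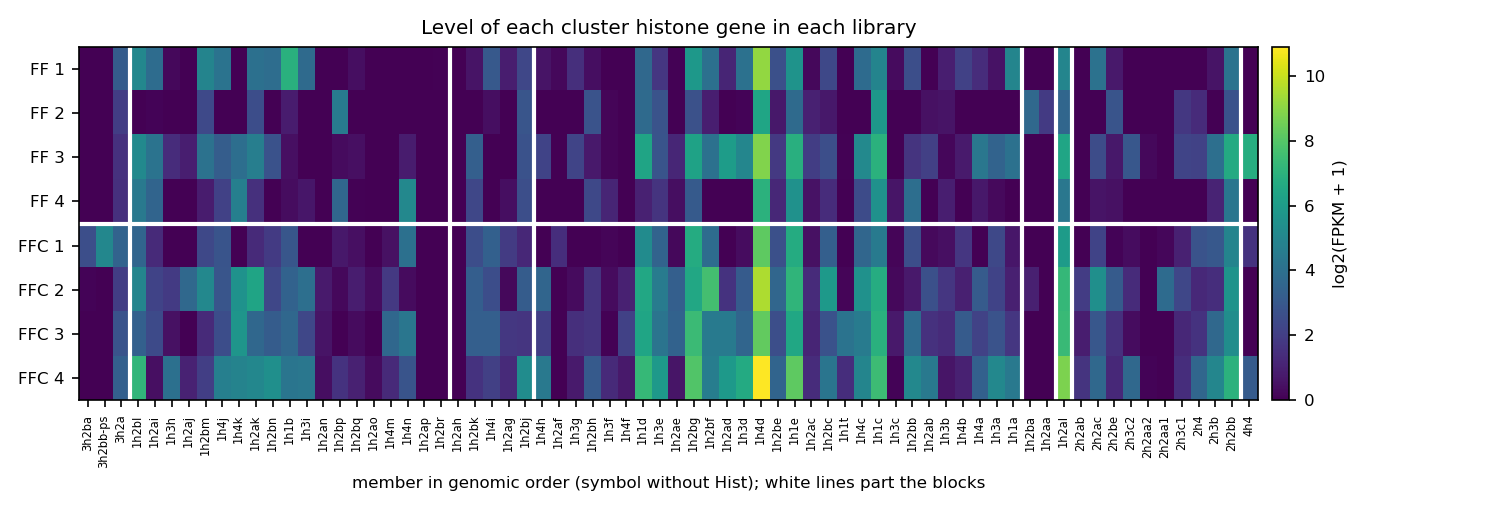
Level of each of the 70 cluster histone genes with values (columns, in genomic order, white lines between blocks) in each of the 8 libraries (rows), as log2(FPKM + 1) in color. FF 2 and FF 4 are the darkest rows and FFC 4 the brightest, and Hist1h4d is the brightest column.

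A few genes made up most of the signal. Hist1h4d, an H4 gene of the long Hist1 block, alone supplied 37.6% of the summed member FPKM, and between 23.1% and 49.2% in single libraries. The 5 highest members held 64.6% and the 10 highest 78.0%. Mean FPKM had a median of 40.1 over the 6 H1 genes, 1.41 over the H2A genes, 5.23 over the H2B genes, 2.55 over the 12 H3 genes with values and 5.22 over the H4 genes. H4 genes took 32.1% to 52.9% of member FPKM per library and H3 genes 1.59% to 6.43%, where a nucleosome holds H3 and H4 in equal number. The H4 share rests on Hist1h4d, whose assigned length in the table is short, so its level relative to other members is uncertain. Other members also have a shorter length in the table than in GENCODE M21. Among them are Hist1h1e (748 against 1930 bp), Hist1h1d (3821 against 7425 bp), Hist1h4c (395 against 820 bp) and Hist4h4 (312 against 2863 bp). Within classes Hist1h1e supplied 37.4% of H1, Hist1h2al 61.2% of H2A, Hist1h2bg 32.3% of H2B, Hist1h3d 30.4% of H3 and Hist1h4d 85.4% of H4 FPKM.

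Members resembled each other across libraries more than genes at large. The mean Pearson r between pairs of the 54 tested members over the 8 libraries was 0.31, against 0.02 between pairs of all 17753 tested genes. By class it was 0.53 for H3, 0.37 for H1, 0.35 for H2A, 0.34 for H4 and 0.12 for H2B. It was 0.50 in the long Hist1 block, 0.19 in the first Hist1 block and 0.35 in the Hist2 cluster. All these values share the same 8 libraries and their depth, and near-identical members can share reads, so they are given as a description. For scale, 77 cytosolic ribosomal protein genes had a mean r of 0.79.

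Between the genotypes, most members had a higher mean in FFC, and none passed the test. On the log2(FPKM + 1) scale 47 of the 54 tested members were higher and 7 lower in FFC, with a median difference of 1.22, while 56.7% of all 17753 tested genes were higher, with a median of 0.19. The size of the median depends on the value added before the logarithm: it was 2.12 with 0.1 and 0.63 with 5 in place of 1. With limma adjusted over all tested genes, 0 of 54 members were called, as were 0% of all genes, and the smallest adjusted p of a member was 0.651. At an unadjusted limma p under 0.05 there were 9 members higher in FFC, where the background was 4.52% of all genes, and 0 members lower, where it was 1.94%. The values of the genotypes did not overlap for 4 members higher in FFC (Hist1h2bg, Hist1h3e, Hist1h2bc and Hist1h4m), against 3.05% of all genes, and for 0 lower, against 1.29%. Hist1h4m, Hist3h2bb-ps and Hist2h2aa1 were listed at 0 in all FF libraries and so passed the filter through FFC values alone. Hist1h2ba passed it through FF 2. With no filter, 58 of 68 members averaged higher in FFC, with a median of 1.01 where that of all genes was 0.01. The 7 members lower in FFC on the log2 scale were Hist1h2bp, Hist1h2ai, Hist1h2ba, Hist4h4, Hist1h2bm, Hist1h1a and Hist1h3g. Hist1h1b and Hist1h4a were higher on that scale but not in mean FPKM. FFC 4 was the highest library for 23 of the 54, FF 2 was the lowest or tied for lowest for 35 and FF 4 for 25.

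**Figure D2:**
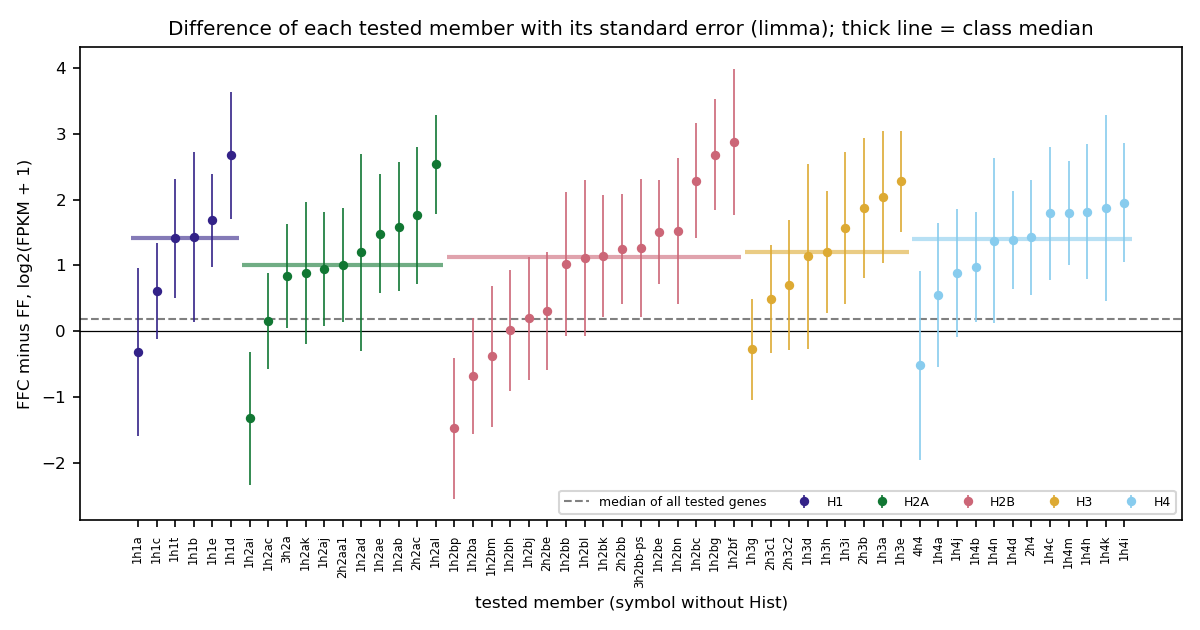
Difference FFC minus FF of each tested member in log2(FPKM + 1), with its limma standard error, ordered within class, a thick line at each class median and a dashed line at the median of all tested genes. Class medians lie between 1.00 and 1.42 and the dashed line at 0.19, and the error bars of many members cross 0.

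The difference was not the same in the 2 months of the titles. Among the Nov libraries (FF 1 to FF 3 against FFC 1) 26 members were higher and 28 lower in FFC, with a median of -0.02, where all genes had -0.25. Among the Dec libraries (FF 4 against FFC 2 to FFC 4) 48 were higher and 5 lower, with a median of 1.99, where all genes had 0.57. Each month holds 1 library of one genotype, so neither value has a replicate check on both sides. The title of FFC 1 is also later in Nov than those of FF 1 to FF 3, an order that the month leaves aside. With month as a covariate over all 8 libraries, 47 members averaged higher in FFC and the median was 0.87. Without FF 2 and FF 4, 39 of 54 members were higher, and the median was 0.73 where that of all genes was 0.07. In that fit 1 member higher in FFC, Hist1h3e, had an unadjusted limma p under 0.05, at 0.0318. Hist1h2ai, lower in FFC, had an unadjusted limma p of 0.0399, and 0 members were called. The mean log2(FPKM + 1) over the tested members was 2.29, 1.18, 2.99 and 1.50 across FF 1 to FF 4, and 2.15, 3.29, 3.01 and 3.91 across FFC 1 to FFC 4. FFC 1, the FFC library of the Nov group, was below FF 1 and FF 3 of the same month. The summed FPKM of the 7 microglial markers followed a like order, at 2163, 875, 2615 and 1436 across FF and 1970.2, 2312, 2244 and 2944 across FFC, with FF 2 and FF 4 lowest and FFC 4 highest, and its part in the histone differences was not tested.

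**Figure D3:**
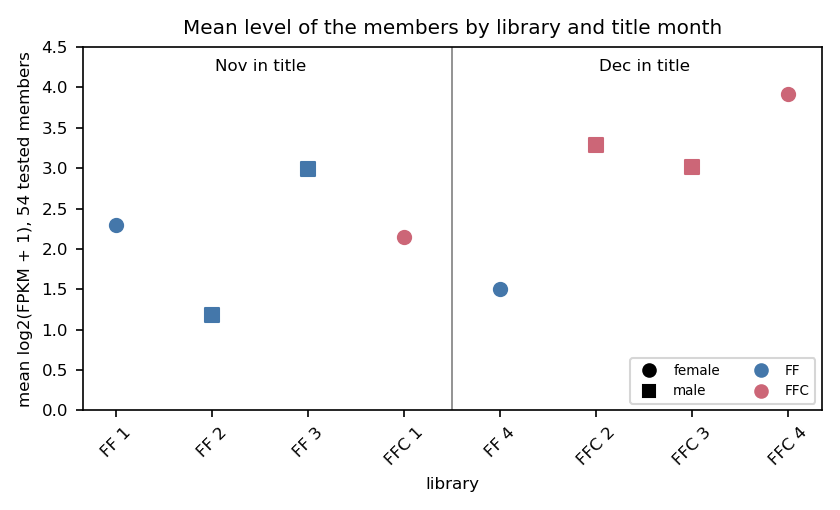
Mean log2(FPKM + 1) of the 54 tested members in each library, by the month in the sample title, with color for genotype and shape for sex. In Nov the FFC library (2.15) sits within the FF range of 1.18 to 2.99, and in Dec the FFC libraries (3.01 to 3.91) sit above the FF library (1.50).

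Of the 6 linker histone genes, 5 averaged higher in FFC on the log2 scale, at a median difference of 1.42. Their summed FPKM was 238, 79.4, 336 and 90.9 across FF and 168, 345, 323 and 660 across FFC, a ratio of means of 2.01. Hist1h1b was among the 5, but its mean FPKM was 30.5 in FF, with 120.8 in FF 1, and 11.4 in FFC. Hist1h1e, the gene of a main somatic linker histone, stood at 47.0, 12.6, 116 and 44.8 FPKM across FF 1 to FF 4, and at 102, 138, 89.4 and 289 FPKM in FFC 1 to FFC 4. Its difference was 1.68 ± 0.71 (SE), with a limma unadjusted p of 0.0324 and an adjusted p of 0.729, and FF 3 lay above FFC 1 and FFC 3. Hist1h1d, another somatic linker gene, had 11.9, 12.5, 80.1 and 1.02 FPKM across FF and 37.3, 91.3, 83.4 and 157 FPKM across FFC. FF 3 was the sole FF library inside the FFC range. Its difference of 2.67 ± 0.96 (SE) had a limma unadjusted p of 0.0156 and an adjusted p of 0.712. Hist1h1c, the third of the abundant linker genes, measured 28.9, 53.5, 123 and 44.8 FPKM across FF and 21.8, 105, 119 and 175 FPKM across FFC. The genotypes overlapped broadly and the difference was 0.61 ± 0.73 (SE; limma adjusted p = 0.812). Within the Nov libraries the H1 median was 0.08, and within the Dec libraries 2.13. The H1 median was 0.68 without FF 2 and FF 4, and the difference was then 0.89 for Hist1h1e and 1.36 for Hist1h1d.

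Among H2A genes, 10 of 11 tested members averaged higher in FFC, at a median of 1.00, -0.31 within Nov and 2.03 within Dec. Summed H2A FPKM was 85.8, 23.1, 202 and 34.4 across FF and 84.1, 328, 234 and 567 across FFC. The class total rested on Hist1h2al: the ratio of means was 3.51 with it and 1.99 without it. GENCODE M21 types this gene as a processed pseudogene, and it lies far from the other clusters. Its values were 30.4, 11.1, 82.7 and 18.8 FPKM in FF against 62.3, 153, 168 and 427 FPKM across FFC. Only FF 3 exceeded the lowest FFC library, FFC 1. The difference was 2.53 ± 0.75 (SE), and it had the smallest unadjusted limma p of all members, 0.00481, with an adjusted p of 0.651. As 67.6% of its 50-base words also occur in another gene, its reads cannot be assigned to it with certainty. Hist1h2ak followed, at 15.4, 5.01, 24.2 and 1.83 FPKM across FF and 1.47, 80.4, 11.4 and 32.1 FPKM across FFC. FFC 1 was its lowest library and FFC 2 its highest, and the difference was 0.89 ± 1.08 (SE; limma adjusted p = 0.816), which turned to -0.26 without FF 2 and FF 4. Hist2h2ac of the Hist2 cluster had 16.0, 0, 4.85 and 0.480 FPKM across FF and 3.59, 41.4, 6.71 and 11.9 FPKM across FFC, with a difference of 1.76 ± 1.05 (SE; limma adjusted p = 0.759). Its difference was 0.24 without FF 2 and FF 4, that of Hist1h2al was 1.67 and the H2A median was 0.52.

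The H2B genes were the class with the lowest mean r between members. Of 16 tested, 13 averaged higher in FFC, at a median of 1.12, 0.27 within Nov and 1.10 within Dec. Their summed FPKM was 182, 69.8, 275 and 89.0 across FF and 227, 506, 290 and 694 across FFC, a ratio of means of 2.79, or 2.35 without Hist1h2bg. Hist1h2bg measured 55.1, 5.43, 77.2 and 7.44 FPKM across FF, and 103, 92.7, 172 and 241 FPKM across FFC. All FFC libraries were above all FF libraries, also FFC 1 above the 3 FF libraries of its month. The exact permutation test then gives p = 0.0286 for any gene, the smallest that 4 against 4 libraries allow, so it adds nothing to the lack of overlap. The difference was 2.69 ± 0.84 (SE, with a limma unadjusted p of 0.00680 and an adjusted p of 0.651). Without FF 2 and FF 4 it was 1.10, and the H2B median was 0.77. Hist1h2bc, in the table a gene of 8290 bp with a GENCODE M21 transcript of 1156 bp, had 4.11, 0.610, 5.12 and 1.57 FPKM across FF and 8.86, 58.2, 5.77 and 17.7 FPKM across FFC. The groups parted here as well, by the narrow gap between FF 3 and FFC 3 (difference 2.29 ± 0.88, SE; limma adjusted p = 0.712).

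In mean level, Hist1h2bg was followed by Hist2h2bb and Hist1h2bf. Hist1h2bf stood at 15.1, 0.907, 15.9 and 0 FPKM across FF and 13.3, 201, 20.7 and 23.5 FPKM across FFC. Its difference of 2.88 ± 1.11 (SE; limma adjusted p = 0.712) was the largest of the 54, and FFC 2 alone was above 100 FPKM. It was 2.04 to 3.49 with any 1 library left out and 1.09 without FF 2 and FF 4. Hist2h2bb of the Hist2 cluster had 16.8, 5.77, 98.9 and 18.3 FPKM across FF and 28.99, 46.7, 39.1 and 127 FPKM across FFC. FF 3 was its second highest library, and the difference was 1.24 ± 0.84 (SE; limma adjusted p = 0.759), or 0.30 without FF 2 and FF 4.

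Of 9 tested H3 genes, 8 had a higher mean in FFC (median 1.20, -0.53 within Nov and 2.31 within Dec). The median was 0.50 without FFC 4, 1.96 without FFC 1 and 0.78 without FF 2 and FF 4. Summed H3 FPKM was 34.9, 9.05, 78.3 and 6.59 across FF and 23.5, 61.4, 56.1 and 272 across FFC. FFC 4 therefore held most of the FFC sum. Hist1h3e was the H3 gene that separated the genotypes: it had 2.31, 5.98, 6.11 and 2.08 FPKM across FF and 10.1, 22.3, 17.3 and 58.4 FPKM across FFC. Its mean was 4.12 ± 2.22 FPKM in FF and 27.0 ± 21.5 FPKM in FFC (SD, n = 4 each). The exact permutation p of 0.0286 follows from the lack of overlap. The difference was 2.28 ± 0.77 (SE, with a limma unadjusted p of 0.0108 and an adjusted p of 0.712). Without FF 2 and FF 4 it was 2.25, and with month as a covariate 2.13 (limma adjusted p = 0.797 and 0.573). Of its 50-base words, 73.4% occur in another gene. Hist1h3d, the highest H3 gene by mean, measured 15.9, 0.0668, 31.3 and 0 FPKM across FF and 0.294, 7.84, 10.9 and 98.8 FPKM across FFC. It was near or at 0 in FF 2, FF 4 and FFC 1, and its difference without FF 2 and FF 4 was -1.11 where all libraries gave 1.14 ± 1.41 (SE; limma adjusted p = 0.823). Hist2h3b had 0.496, 0, 15.0 and 1.09 FPKM across FF and 7.09, 1.65, 11.9 and 31.5 FPKM across FFC (limma adjusted p = 0.759). Hist1h3a had 0.457, 0, 9.96 and 0.211 FPKM across FF and 4.15, 3.53, 5.98 and 33.0 FPKM across FFC (limma adjusted p = 0.759). In both genes FF 3 was the sole FF library within the FFC range. Their differences of 1.87 and 2.04 were 0.99 and 1.11 without FF 2 and FF 4.

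H4 genes all encode the same protein, and one of them carried the class. Hist1h4d had 565, 84.1, 456 and 127 FPKM across FF and 288, 751, 311 and 1902 FPKM across FFC. FF 1 and FF 3 were above FFC 1 and FFC 3, so the genotypes overlapped, and the difference was 1.38 ± 0.74 (SE; limma adjusted p = 0.759). It was 0.24 without FF 2 and FF 4. The table gives this gene 393 bp, little more than its coding sequence, whereas its GENCODE M21 transcript is 1138 bp, and a short assigned length raises FPKM. Summed H4 FPKM was 607, 85.9, 651 and 193 across FF and 341, 877, 447 and 2046 across FFC, a ratio of means of 2.41, and 1.50 when Hist1h4d was left out.

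Of 12 tested H4 genes, 11 averaged higher in FFC, at a median of 1.40, 0.44 within Nov and 2.15 within Dec. The H4 median was 0.89 without FF 2 and 0.69 without FF 2 and FF 4. Hist1h4k was listed at 0 in FF 1, FF 2 and FFC 1 and measured 14.3 and 24.7 FPKM in FF 3 and FF 4 and 45.8, 50.6 and 28.6 FPKM in FFC 2 to FFC 4. Its direction turned to -0.31 with month as a covariate. Hist1h4c had 12.9, 0, 34.0 and 4.59 FPKM across FF and 11.1, 44.5, 22.0 and 29.9 FPKM across FFC, with FF 3 above 3 of the FFC libraries. Its difference was 1.79, and 0.18 without FF 2 and FF 4. Hist1h4m was listed at 0 in all FF libraries and measured 0.403, 2.47, 11.3 and 1.47 FPKM across FFC (limma adjusted p = 0.755). It passed the expression filter through FFC values alone, and its exact permutation p of 0.0286 follows from the lack of overlap. Of its words, 89.8% are shared with another gene. Hist1h4i had 7.28, 0.317, 0 and 0 FPKM across FF and 9.18, 4.97, 8.72 and 3.15 FPKM across FFC. FF 1 alone overlapped with FFC for this gene, whose difference was 1.95 ± 0.90 (SE; limma adjusted p = 0.759), or 1.29 without FF 2 and FF 4.

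**Figure D4:**
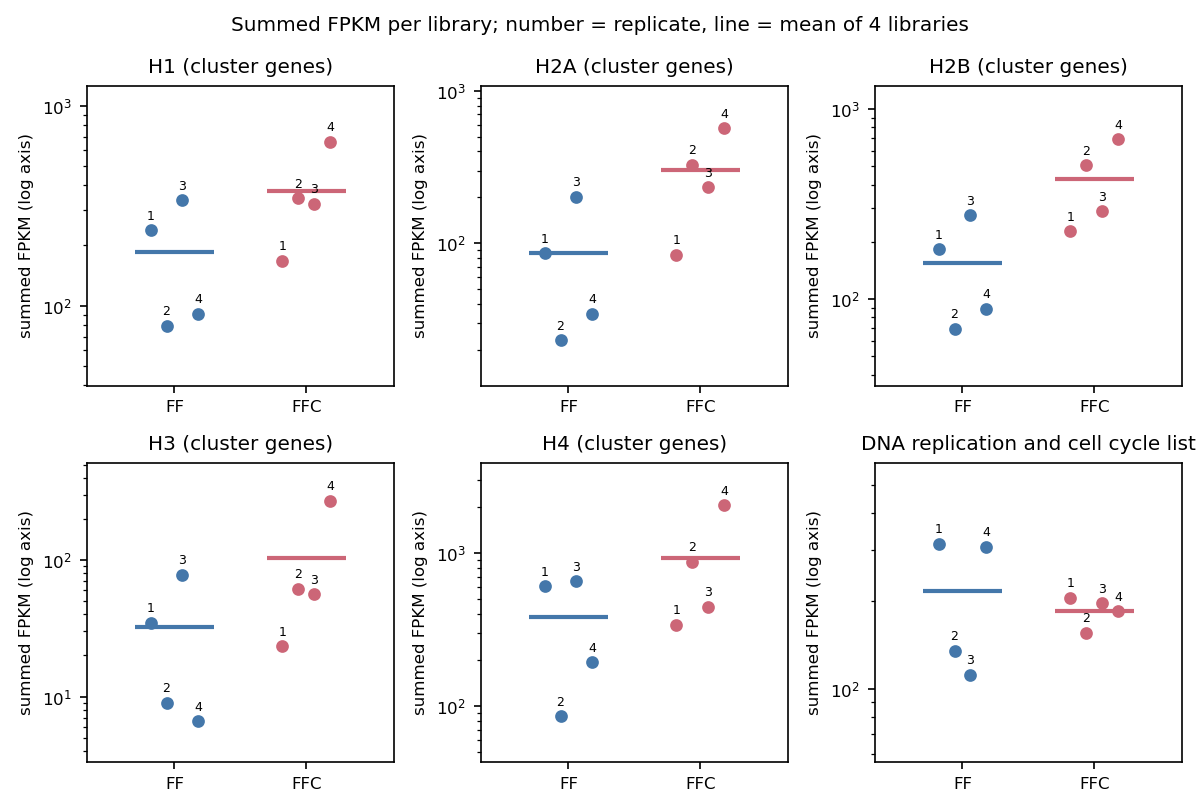
Summed FPKM (log axis) of the members of each histone class and of a list of DNA replication and cell cycle genes in each library, with replicate numbers at the points and a line at the mean of 4 libraries. The FFC mean is above the FF mean in each histone class, FF 2 and FF 4 are the low FF points and FFC 4 the high FFC point, and the replication list has its 2 highest points in FF 1 and FF 4.

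By locus, most tested members averaged higher in FFC in each of the larger blocks. In the long Hist1 block 22 of 24 tested members averaged higher in FFC, at a median of 1.45, and it held 6 of the 9 members at an unadjusted limma p under 0.05. In the first Hist1 block 11 of 14 were higher, with a median of 1.15, and in the block between them 3 of 3, with 1.14. In the Hist2 cluster 8 of 8 were higher, with a median of 1.12. Without FF 2 and FF 4 the median was 0.92 in the long Hist1 block, 0.58 in the Hist2 cluster and 0.17 in the first Hist1 block. The median of the first block was also 0.68 without FFC 4. Summed FPKM of the long block was 809, 184, 1075 and 257 across FF and 616, 1571, 953 and 3212 across FFC. No difference between blocks was tested.

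Members outside chromosomes 13 and 3 were sporadic, apart from Hist3h2a. Hist3h2a, an H2A gene, was present in every library, at 8.05, 2.95, 1.98 and 1.81 FPKM across FF and 10.0, 2.98, 5.96 and 8.93 FPKM across FFC (difference 0.84 ± 0.79, SE; limma adjusted p = 0.766; 0.52 without FF 2 and FF 4). Its neighbours Hist3h2bb-ps and Hist3h2ba were listed at 0 in all FF libraries and were high in FFC 1 alone, at 32.1 and 5.17 FPKM. Hist4h4 measured 110.5 FPKM in FF 3, 2.06 in FFC 1 and 7.69 in FFC 4, and was listed at 0 in the remaining 5. The testis genes behaved likewise. Hist1h2ba and Hist1h2aa, the H2B and H2A genes of male germ cells, were seen in FF 2 at 11.8 and 2.59 FPKM, and otherwise Hist1h2ba alone in FFC 2 at 0.939 FPKM. FF 2 also had the highest chemosensory share. The linker gene of spermatocytes, Hist1h1t, reached 17.0 FPKM in FFC 3 and 1.68 FPKM in FFC 4, and was at 0.110 FPKM or less in the other libraries. The 8 further germ cell markers summed to 3.50 FPKM in FF 2 and at most 46.8 FPKM, in FF 1, and of the 2 that passed the expression filter none was called.

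H2A and H2B genes of the clusters often lie head to head, with start sites close together and a shared upstream region. There were 13 such pairs, with start sites 168 to 306 bp apart in mm9, and both genes were tested in 7. Pearson r over the 8 libraries between the 2 genes of a pair ranged from 0.17 to 0.61, with a median of 0.41. The mean was 0.35 over all pairs of tested H2A genes and 0.12 over those of H2B genes. H2A and H2B genes that are not partners were not compared, so these values do not tell whether a shared upstream region goes with likeness. The pair with the highest summed mean, Hist1h2ae and Hist1h2bg (176 bp apart), showed that the partners can differ strongly in level. Hist1h2ae had 0.0363, 0, 1.26 and 0.337 FPKM across FF and 0.186, 8.75, 9.88 and 0.523 FPKM across FFC, against 5.43 to 241 FPKM for Hist1h2bg. The 150 bases printed before Hist1h2bg also precede Hist1h2ae on the other strand. The same letters thus lie upstream of both genes, but in opposite orientation and at other distances. TATAAA lay 43 bases before the start of Hist1h2bg and 142 before that of Hist1h2ae, and the octamer 59 and 128 bases.

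In the other 2 leading pairs the partners peaked in different libraries. Hist1h2ad, the partner of Hist1h2bf (185 bp, r = 0.41), measured 1.21, 0, 63.3 and 0 FPKM across FF and 0, 2.00, 20.97 and 58.6 FPKM across FFC. It was highest in FF 3 and FFC 4, whereas Hist1h2bf was highest in FFC 2. In the pair of Hist1h2bl and Hist1h2ai (269 bp, r = 0.33), Hist1h2bl had 31.8, 0, 35.0 and 20.4 FPKM across FF and 10.7, 30.3, 9.16 and 145 FPKM across FFC, a difference of 1.11 ± 1.18 (SE; limma adjusted p = 0.792). This direction rested on FF 2: the difference was -0.11 without it and -0.34 without FF 2 and FF 4, and the FF median of 26.1 FPKM was above the FFC median of 20.5 FPKM. Hist1h2ai had 13.5, 0.0857, 17.0 and 10.4 FPKM across FF and 1.46, 3.56, 4.39 and 0.349 FPKM across FFC, a difference of -1.33 ± 1.00 (SE; limma adjusted p = 0.759). Outside FF 2, all FF values of Hist1h2ai were above all FFC values.

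The 16 members with values but a mean under 1 FPKM comprised 9 H2A, 3 H2B, 3 H3 and 1 H4 gene. The filter passed just above Hist1h2ag (mean 0.992 FPKM) and just below Hist1h3g (1.03 FPKM). Among the 16, 11 had a higher and 3 a lower mean in FFC, and 8 were above 1 FPKM in at least 1 library. They also shared more sequence with other genes than the tested members did, by the median. A median of 79.3% of their 50-base words occurred in another gene, against 47.7% for the 34 members with a mean of 1 to 10 FPKM and 35.3% for the 20 at 10 FPKM or more. By class the median was 1.13% for H1, 39.5% for H4, 43.8% for H2B, 62.0% for H3 and 73.2% for H2A. The sources used here do not give how reads that match several genes were shared out, so levels of members with many shared words are uncertain. Of the 8 tested members with under 10% shared words (Hist1h1a, Hist1h1b, Hist1h1c, Hist1h1d, Hist1h1t, Hist2h2be, Hist2h4 and Hist4h4), 6 averaged higher in FFC, at a median of 1.01. The percent is taken over the GENCODE M21 transcript, which can be longer than the gene in the deposited table, as for Hist4h4 (2863 against 312 bp).

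**Figure D5:**
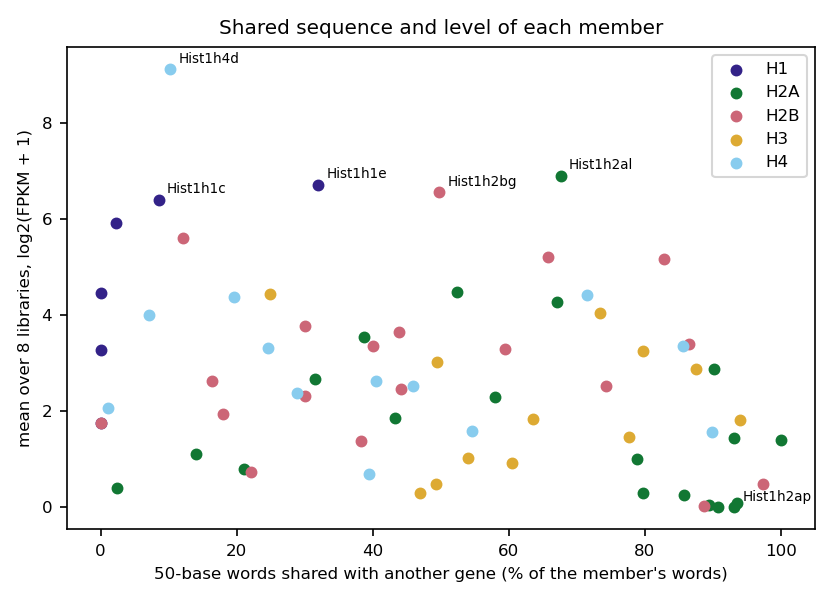
Mean log2(FPKM + 1) over 8 libraries of each member against the percent of its 50-base words that occur in another GENCODE M21 gene, with color for class. Members with a mean near 0 lie mostly at over 70% shared words. Hist1h4d, the highest, has 10.2%, taken over a transcript of 1138 bp, longer than its 393 bp in the deposited table.

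Between the sexes, with genotype as a covariate, limma called 0 of the 54 members and 0% of all tested genes. The genotype difference was seen in both sexes as a count: 47 members were higher in FFC among females (median 0.88, where all genes had 0.08) and 41 among males (median 1.33, where all genes had 0.22), with 2 libraries a group. The female libraries held 1 Nov and 1 Dec library per genotype. Among males both FF libraries were Nov and both FFC libraries Dec, so there genotype and month cannot be told apart.

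Histone genes outside the clusters and the genes that make or use histones were described from lists. Of 9 tested variant and outlying linker genes, 6 had a higher mean in FFC (median 0.88) and 0 were called. H1f0, the linker histone of differentiated cells, had 5.53, 6.36, 24.3 and 1.11 FPKM across FF and 11.6, 41.7, 43.1 and 145 FPKM across FFC. As for Hist1h1d, FF 3 alone was inside the FFC range, and it had a difference of 2.60 ± 0.92 (SE; limma unadjusted p = 0.0142, adjusted p = 0.712). H3f3b, which encodes the replication-independent H3 variant, had 109.7, 12.3, 231 and 33.8 FPKM across FF and 57.7, 159.9, 185 and 411 FPKM across FFC (difference 1.48 ± 0.87, SE; limma adjusted p = 0.759; 0.03 without FF 2 and FF 4). Here too FF 2 and FF 4 were lowest and FFC 4 highest.

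Genes of histone mRNA processing had a median difference near that of all tested genes. Of 15 tested, 10 had a higher and 5 a lower mean in FFC, and 0 were called. The median was 0.20, where that of all tested genes was 0.19, with 56.7% of them higher. Slbp, the stem-loop binding protein, stood at 31.1, 18.6, 7.10 and 16.8 FPKM across FF and 3.07, 14.6, 30.0 and 5.87 FPKM across FFC (difference -0.69 ± 0.81, SE; limma adjusted p = 0.811). Its lowest libraries included FFC 4, where the histone genes were highest. Cpsf3, the endonuclease that cleaves histone pre-mRNA, had 15.1, 4.95, 17.5 and 13.9 FPKM across FF and 10.4, 66.4, 32.0 and 42.7 FPKM across FFC (limma adjusted p = 0.759). Lsm10 of the U7 particle had 31.9, 7.30, 6.00 and 2.16 FPKM across FF and 1.71, 65.3, 23.8 and 79.4 FPKM across FFC (limma adjusted p = 0.759). Both were low in FFC 1 and higher in the other FFC libraries.

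DNA replication and cell cycle genes, a list that holds S phase genes and also mitotic genes such as Ccnb1, were split. Of 23 tested, 11 had a higher and 12 a lower mean in FFC, with a median of -0.05, and 0 were called. Their summed FPKM was 314, 135, 112 and 307 across FF and 205, 156, 196 and 185 across FFC, so FF 4, low in histone FPKM, was high here, and FF 3, the highest FF library in histone FPKM, was lowest. Tyms, which encodes thymidylate synthase, had the smallest p of the list and measured 2.12, 1.49, 4.82 and 0.570 FPKM across FF and 64.9, 3.03, 4.40 and 4.18 FPKM across FFC. FFC 1 was far above the rest and FF 3 lay within the FFC range. Its difference was 1.68 ± 0.99 (SE; limma unadjusted p = 0.114, adjusted p = 0.759), and with month as a covariate 2.92 (limma unadjusted p = 0.00976, adjusted p = 0.560). Ccnb1, a mitotic cyclin, measured 6.22, 19.5, 8.82 and 3.61 FPKM across FF and 1.46, 2.77, 3.69 and 3.45 FPKM across FFC (difference -1.28; limma adjusted p = 0.759). Rrm2, a subunit of ribonucleotide reductase, measured 2.54, 13.8, 0.162 and 0.0183 FPKM across FF and 0.148, 0.369, 1.05 and 0.00967 FPKM across FFC (difference -1.06, or -0.60 without FF 2 and FF 4; limma adjusted p = 0.759). FF 2, the library lowest in histones, was highest in Ccnb1 and Rrm2. Of 12 tested histone chaperones and acetyltransferases, 10 averaged higher in FFC, at a median of 0.54, and 0 were called. Ipo4, an importin that carries histones, had 0.653, 0.716, 8.56 and 11.6 FPKM across FF and 147, 7.00, 15.1 and 18.4 FPKM across FFC (limma adjusted p = 0.729).

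Markers of other cells were present at low to high levels and also moved between libraries. The 8 T cell markers summed to 34.1 to 476 FPKM in FF and 15.9 to 58.9 FPKM in FFC, and the 8 neutrophil markers to 193 to 2803 FPKM in FF and 4.44 to 961 FPKM in FFC. B cell markers summed to 217 to 773 FPKM in FF and 141 to 423 FPKM in FFC, and erythroid markers to 67.6 to 243 FPKM in FF and 36.4 to 64.5 FPKM in FFC. FF 1 was the highest library for each of these 4 lists, and it was neither the highest nor the lowest FF library in histone FPKM. Endothelial markers summed to 20.2 to 45.1 FPKM in FF and 4.59 to 18.8 FPKM in FFC. No marker of these lists was listed at 0 in all 8 libraries, and Ly6g, a defining neutrophil gene, was listed at 0 in FF 1 to FF 4 and FFC 1. Their part in the histone differences was not tested.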

How the data were processed

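Per the labels' protocols, tissue was dissociated, cells were enriched on Percoll and sorted, and total RNA was amplified with the Ovation method, sheared, size-selected and sequenced on an Illumina HiSeq. The priming of cDNA, which bears on mRNAs without a poly(A) tail, was not given in these protocols. The authors deposited FPKM values per gene and library. Build mm9, Cufflinks 2.0.2, Bowtie2 2.0.0, TopHat2 2.0.4 and CASAVA 1.8.2 appear, with no role or order, per the submitters' processing notes; the annotation: not given in the sources used here. Read depth cannot be had from FPKM, so counting intervals are lacking.

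The deposited FPKM were put on the log2(FPKM + 1) scale without rescaling, and 17753 genes averaging at least 1 FPKM were tested. The 447 genes with a missing value were left out. The pseudocount of 1 understates the change of low genes. All 8 libraries were fitted with limma 3.58.1 in R 4.3.3 (empirical Bayes with trend, two-sided, Benjamini-Hochberg over all tested genes, threshold 0.05). Single genes were also compared with an exact two-sided permutation test over the 70 arrangements of libraries, whose smallest p is 0.0286. A gene without overlap between the genotypes has that p by construction. The fit was tested on simulated data. Lists and blocks were described by counts and medians; 1 gene of the microglial list is not reported here. Members and lists were chosen with earlier results of these data known. Named were, per class, the 3 tested members with the highest mean and the 2 with the smallest unadjusted p, members without overlap and with a mean of at least 5 FPKM, the testis members, members outside chromosomes 13 and 3, the 3 divergent pairs with the highest summed mean, and per list the 3 tested genes with the smallest unadjusted p, and Slbp. Hist1h4m meets this through its p. Some named list genes are given in counts only, and members lower in FFC and sparse ones were named after their values were seen.

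Symbols and Ensembl identifiers matched GENCODE M21 for 59 rows by identifier and 12 by symbol. Shared sequence was the percent of 50-base words of a member's transcripts found in any other gene. Promoters were matched to RefSeq through synonyms. Python 3.11.15, numpy 2.4.6, pandas 2.3.3 and matplotlib 3.10.9 did the rest. Alternatives were pseudocounts of 0.1 and 5, a filter at a mean of 5 FPKM or none, upper-quartile and quantile scaling, sex or title month as a covariate, the replicate block, and leaving out libraries. The month is a part of the sample titles and nothing in the labels says what it dates.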

Additional observations from a re-analysis of the deposited data

Results flagged for a closer look

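In 8 of the 88 groups of 4 libraries examined, 1 library stood far from the other 3 by Dixon's test of log2(FPKM + 1). The groups held values of named genes and summed FPKM of each class and of all members. Groups with 3 or more values of 0 were left out. The test flags about 1 group in 20 by chance for normally distributed values, which values near 0 need not be. Among FF libraries, FF 3 was high for Hist1h3a (9.96 FPKM, others 0 to 0.457) and for the histone chaperone gene Asf1b (4.37 FPKM, others 0.220 to 0.309), and FF 1 was high for Hist1h4i (7.28 FPKM, others 0 to 0.317). FF 2 was low for both genes of the divergent pair Hist1h2bl (0 FPKM, others 20.4 to 35.0) and Hist1h2ai (0.0857 FPKM, others 10.4 to 17.0). Among FFC libraries it was FFC 1 each time: Hist1h4k was listed at 0 FPKM (others 28.6 to 50.6), Hist3h2ba stood at 5.17 FPKM (others 0 to 0.0766), and Tyms, which encodes thymidylate synthase, at 64.9 FPKM (others 3.03 to 4.40).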

How the results depend on the processing

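With limma, 0 members were called under all 18 alternatives, and for the 41 named genes 719 of 730 values kept their direction. Where values changed, the cause was not tested. Upper-quartile and quantile scaling moved the median of all genes from 0.19 to 0.03 and gave 45 and 44 members higher. Replicate numbers did not pair the libraries (correlations of deviations -0.0406, 0.0344, -0.00926 and -0.0516, none best with its own number). With the replicate block 7 members higher in FFC had an unadjusted limma p under 0.05, and 0 members were called. A pseudocount of 0.1, which widens differences that involve 0, gave medians of 2.12 for all members, 2.07 for H2A, 1.796 for H2B, 2.69 for H4, 2.06 for the first Hist1 block and 2.13 for the Hist2 cluster, and turned Hist4h4 to 0.15. At a mean of at least 5 FPKM, with 33 members tested, 29 were higher. Leaving out 1 library at a time gave 4 to 12 members higher in FFC at an unadjusted limma p under 0.05 (5 without FF 2, 5 without FF 4, 4 without FFC 2). It gave 44 to 49 members with a higher mean in FFC and a median over members of 0.88 to 1.58. The H2B median ranged from 0.59 (without FFC 4; 0.65 without FF 2) to 1.42, the H3 median from 0.50 (without FFC 4) to 1.96 (without FFC 1), the H2A median from 0.85 to 1.82 (without FFC 1), the H4 median from 0.89 (without FF 2) to 1.69 and that of the first Hist1 block from 0.68 (without FFC 4) to 1.58. Hist1h2ba ranged from -0.99 to 0.24 and Hist1h2bl from -0.11 to 1.61, both turned by leaving out FF 2, and Hist4h4 from -1.16 to 1.18, turned by leaving out FF 3. With month as a covariate Hist1h4k was at -0.31 and Hist4h4 at 0.19. Without FF 2 and FF 4, 1 member higher in FFC had an unadjusted limma p under 0.05, as did Hist1h2ai, lower in FFC at -2.43. The median of the first Hist1 block was then 0.17. Hist1h2ak was at -0.26, Hist1h2ad at -0.59, Hist1h3d at -1.11, Hist1h2ba at 0.24 and Hist1h2bl at -0.34.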
